A study of Mus musculus with 8 samples.

Results

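The CCN family consists of 6 genes for secreted matrix-associated proteins, Ccn1 to Ccn6, and all 6 were found by symbol among the 55358 genes to which the deposited transcript values were summed. Levels are given as FPKM, the number of sequenced fragments scaled to the length of the transcript and to the mapped fragments of the library. Of the 6 members, 5 passed the expression filter of at least 1 FPKM in at least 2 of the 8 libraries and were tested among 13693 genes, and Ccn6 did not. The cells were mouse embryonic fibroblasts, connective-tissue cells cultured from embryos. They were labelled Arid5a-/- (KO) or wild type (WT), and each genotype was kept for 24 h with interleukin 6 (IL-6) at 100 ng/ml or without it. The 4 groups were KO with IL-6, untreated KO, WT with IL-6 and untreated WT, with 2 libraries each (n = 2). Separate cultures, the number of isolates per genotype and the deleted part of Arid5a are not given in the labels. The p-values therefore rest on how far the 2 libraries of a group lay apart, a spread that can be technical. For each gene this spread was pooled over all 4 groups and drawn toward that of genes of similar level. It is thus not the spread of the compared groups alone.

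CCN proteins are built from modules that resemble an insulin-like growth factor binding domain, a von Willebrand factor domain, a thrombospondin repeat and a C-terminal cysteine knot, and they act at the cell surface through integrins, syndecans and LDL-receptor-related proteins. In fibroblasts Ccn1 and Ccn2 are known as rapid targets of the mechanosensitive YAP/TEAD and MRTF/SRF transcription factors and, for Ccn2, of TGF-beta. Ccn4 and Ccn5 were first described as Wnt-induced genes, and Ccn3 and Ccn5 are often described as counterweights to Ccn2 in matrix deposition. IL-6 signals through gp130 and STAT3 and is a major inducer of acute-phase genes.

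Low FPKM values lay on steps of whole fragments, which gave fitted depths of 37000000 to 46850000 fragments per library, with 90.4 to 93.1% of 832 to 952 low values within 0.1 of a whole number after the fit. Arid5a was at 8.474 and 8.146 FPKM in KO with IL-6, 5.51 and 6.853 in KO without it, 30.86 and 30.99 in WT with IL-6, and 18.73 and 15.89 in WT without it, so it was reduced in both KO groups but still measured (-1.35 ± 0.10 on the log2 scale used below without IL-6, limma adjusted p = 1.32e-05). The genotypes also differed in markers of other cells. The sum of 8 mesothelial and epithelial markers was 1109 to 1164 FPKM over the KO libraries, with 7 of 8 at 1 FPKM or more, and 39.47 to 54.22 FPKM over the WT libraries, with 2 of 8 at that level. The mesothelial factor gene Wt1 was at 106.4 to 114.4 FPKM in KO libraries and listed at 0 in all WT libraries. The mesothelial gene Upk3b was at 496.9 to 534.7 FPKM in KO libraries and at 0.007451 to 0.03677 in WT libraries. Of the same markers, Msln was also expressed in WT libraries, at 34.23 to 46.72 FPKM, against 224.4 to 239.5 in KO libraries. Epcam overlapped, at 0.4866 to 0.6361 FPKM in KO libraries and 0.4213 to 0.6616 in WT libraries. The sum of 6 endothelial markers was 10.82 to 12.05 FPKM in KO libraries, with Tek and Kdr at 1 FPKM or more, and 0.07637 to 0.1808 in WT libraries, with none at that level, while the endothelial-defining Pecam1 and Cdh5 were at no more than 0.1051 FPKM in any library. Fibroblast markers went both ways, and 6 of 7 in KO and 7 of 7 in WT reached 1 FPKM. Pdgfra, Pdgfrb, Thy1 and Vim were lower in all KO libraries, with Pdgfrb at 6.972 to 7.404 FPKM in KO libraries and 48.08 to 50.28 in WT libraries. The collagen genes Col1a1, at 911.7 to 1059 FPKM in KO libraries and 417.9 to 565.2 in WT libraries, and Col3a1, at 828.3 to 877.8 in KO libraries and 197.0 to 308.5 in WT libraries, were higher, and Col1a2 overlapped. The summed level of the 7 fibroblast markers overlapped too, at 3284 to 3532 FPKM in KO libraries and 2867 to 3667 in WT libraries. The part of these marker differences in the KO against WT results below was not tested, and in bulk RNA fewer cells of a type and less RNA per cell cannot be told apart.

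Both KO groups and both WT groups expressed the family, but with different members on top. Ccn1, Ccn2 and Ccn4 were higher in KO, and Ccn3 and Ccn5 were lower, with Ccn5 at under 1 FPKM in every KO library. Calls were made with limma at a Benjamini-Hochberg adjusted p below 0.05 on log2(FPKM + 1), and all changes given as log2 are on that scale, which understates the change of low genes. All 5 tested members passed, 3 higher and 2 lower, beside 71.0% of all genes tested (36.4% higher and 34.5% lower), so the number of members called is no result about the family. With IL-6 in both genotypes the same 5 members passed in the same directions, beside 71.7% of all genes (36.9% higher and 34.8% lower).

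**Figure D1:**
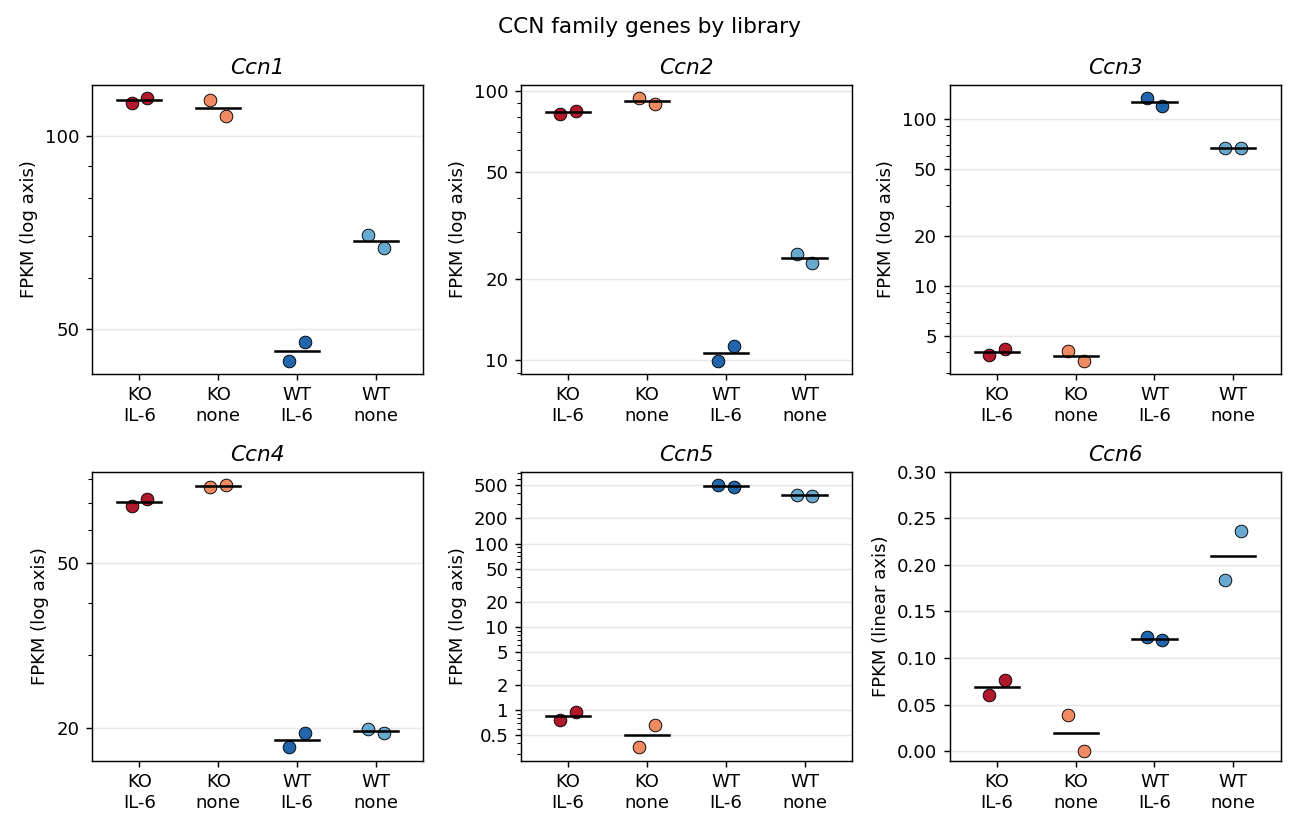
FPKM of each CCN gene in every library (points) with the group mean (bar), for KO with IL-6, untreated KO, WT with IL-6 and untreated WT; the axis is logarithmic for Ccn1 to Ccn5 and linear for Ccn6. Ccn1, Ccn2 and Ccn4 lie higher in all KO libraries, and Ccn3 and Ccn5 higher in all WT libraries.

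Ccn5 encodes the member without the cysteine knot, and its coding sequence of 251 codons is the shortest among the main transcripts, against 348 to 379 codons for the others. It lies on chromosome 2 (GRCm38, 163820861 to 163833146, plus strand). It was at 0.76 and 0.9467 FPKM in KO with IL-6, 0.356 and 0.6582 in KO without it, 506.4 and 480.6 in WT with IL-6, and 380.9 and 375.9 in WT without it. Every WT library lay far above every KO library. At the fitted depths the KO values stand for about 47 and 65 fragments with IL-6 and 19 and 33 without, against 22258 to 28629 in the WT libraries, so Ccn5 was low in KO but counted in every library. The untreated WT mean was 746 times the untreated KO mean, with a log2 change of -7.98 ± 0.095 (SE, adjusted p = 9.5e-10), and with IL-6 the WT mean was 578 times the KO mean (-8.06 ± 0.095, adjusted p = 8.86e-10).

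Ccn3, whose protein restrains proliferation and antagonizes Ccn2 in several cell types, followed Ccn5 at a smaller size. It lies on chromosome 15 (54745702 to 54754039, plus strand). It stood at 3.846 and 4.189 FPKM in KO with IL-6, 4.066 and 3.558 in KO without it, 133.1 and 119.7 in WT with IL-6, and 66.66 and 67.08 in WT without it. The KO libraries overlapped each other with and without IL-6, and both lay below all WT libraries. The log2 change in KO was -3.82 ± 0.073 in untreated cells (adjusted p = 8.22e-09) and -4.67 ± 0.073 in IL-6-treated cells (adjusted p = 3.07e-09).

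Ccn2, connective tissue growth factor, a driver of matrix synthesis on chromosome 10 (24595442 to 24598683, plus strand), was at 81.74 and 84.17 FPKM in KO with IL-6, 93.79 and 88.81 in KO without it, 9.956 and 11.26 in WT with IL-6, and 24.81 and 22.9 in WT without it. No 2 groups overlapped. The KO mean was 3.83 times the WT mean without IL-6 (1.89 ± 0.066, adjusted p = 1.79e-07) and 7.82 times with it (2.86 ± 0.066, adjusted p = 2.02e-08). An opposite-strand transcript, Gm15270, shares 665 of the 2861 exonic bases of Ccn2. The libraries were made with a strand-marking kit, but the counting is not stated to use strand. Gm15270 was at no more than 1.324 FPKM in any library.

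Ccn4, described first as a Wnt-induced gene and located on chromosome 15 (66891320 to 66923201, plus strand), was at 68.9 and 71.31 FPKM in KO with IL-6, 76.28 and 77.34 in KO without it, 17.92 and 19.38 in WT with IL-6, and 19.84 and 19.44 in WT without it. All KO libraries lay above all WT libraries. The KO mean was 3.91 times the WT mean without IL-6 (1.91 ± 0.047, adjusted p = 2.82e-08) and 3.76 times with it (1.86 ± 0.047, adjusted p = 3.11e-08).

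Ccn1, a cell-adhesive and angiogenic matrix protein encoded on chromosome 3 (145646976 to 145649981, minus strand), was at 112.8 and 114.8 FPKM in KO with IL-6, 113.8 and 107.8 in KO without it, 44.64 and 47.8 in WT with IL-6, and 70.25 and 66.96 in WT without it. The KO groups overlapped each other and lay above both WT groups, which did not overlap. The KO mean was 1.61 times the WT mean without IL-6 (0.68 ± 0.049, adjusted p = 9.14e-06) and 2.46 times with it (1.28 ± 0.049, adjusted p = 2.65e-07).

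Ccn6, a member linked to cartilage disease in humans and located on chromosome 10 (39150970 to 39163794, minus strand), was barely measured. It was at 0.06057 and 0.07685 FPKM in KO with IL-6, 0.03864 and 0 in KO without it, 0.1229 and 0.1192 in WT with IL-6, and 0.1834 and 0.2365 in WT without it. These values stand for about 3, 4, 2, 0, 6, 6, 9 and 13 fragments in that order. The 4 groups did not overlap, with untreated WT highest. However, 482 of its 1419 exonic bases lie opposite exons of Tube1, which was at 6.461 to 9.43 FPKM, so the source of these few fragments is uncertain. Without the expression filter Ccn6 was lower in untreated KO than in untreated WT by log2 -0.25 ± 0.030 (limma, adjusted p = 0.00133), and its other 4 comparisons did not pass.

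The make-up of the family was turned over between the genotypes. The summed FPKM of the 6 genes was 271.7 ± 5.22 in KO with IL-6, 283.3 ± 7.17 in KO without it, 695.5 ± 23.5 in WT with IL-6, and 557.6 ± 7.10 in WT without it (SD, n = 2 each). Ccn5 made up 0.314 ± 0.0426% of that sum in KO with IL-6 and 0.180 ± 0.0800% in untreated KO, against 70.9 ± 0.219% (IL-6) and 67.9 ± 0.241% (untreated) for the WT groups. Ccn2 held 30.5 ± 0.0455% in KO with IL-6 and 32.2 ± 0.426% in untreated KO, against 1.53 ± 0.185% (IL-6) and 4.28 ± 0.187% (untreated) for the WT groups. The members with the cysteine knot made up nearly all of the KO sum, whereas the member without it was the most abundant in WT. In untreated WT the order of levels was Ccn5, then Ccn1 and Ccn3, whose libraries came within each other's spread (66.96 to 70.25 and 66.66 to 67.08 FPKM), then Ccn2, Ccn4 and Ccn6. In WT with IL-6 it was Ccn5, Ccn3, Ccn1, Ccn4, Ccn2 and Ccn6, with no overlap between neighbours. In both KO groups it was Ccn1, Ccn2, Ccn4, Ccn3, Ccn5 and Ccn6, again with no overlap between neighbours.

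**Figure D2:**
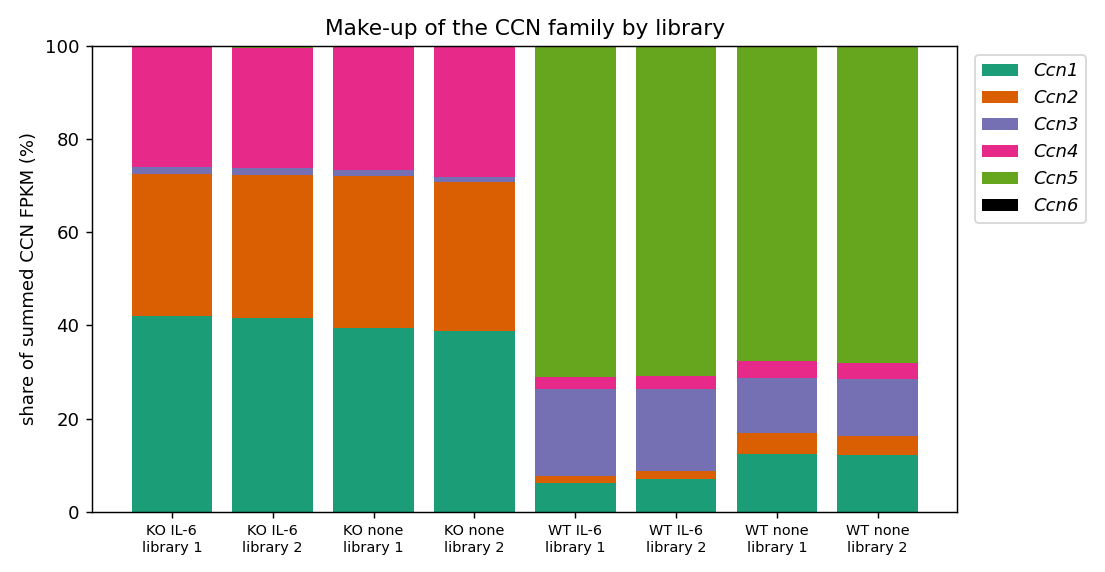
Share of each CCN gene in the summed FPKM of the 6 genes, in percent, for each of the 8 libraries. Ccn1, Ccn2 and Ccn4 fill the KO bars, and Ccn5 takes 70.9% of the sum on average with IL-6 in WT, against 67.9% in untreated WT.

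In WT fibroblasts IL-6 moved the members in opposite directions. Ccn1 and Ccn2 fell, Ccn3 and Ccn5 rose, and Ccn4 did not pass the test. The summed fibroblast markers also differed, at 2867 to 2976 FPKM in WT with IL-6, against 3548 to 3667 in untreated WT, and their part in the IL-6 results was not tested. Of 5 adipocyte markers, Fabp4 alone reached 1 FPKM in WT (6.437 to 32.67 over the WT libraries), and the summed level was 29.16 to 32.77 FPKM in WT with IL-6, against 6.653 to 7.595 in untreated WT. Adipoq and Cidec were at 0 in all WT libraries, and Plin1 and Pparg at no more than 0.009464 and 0.2283 FPKM. Of the 5 tested members 4 were called, beside 15.7% of all genes tested (8.30% higher, 7.41% lower). Ccn2 fell to 10.61 ± 0.925 FPKM in WT with IL-6, against 23.86 ± 1.348 in untreated WT (SD, n = 2), a log2 change of -1.10 ± 0.066 (SE, limma adjusted p = 8.03e-05). Ccn1 fell to 46.22 ± 2.24 FPKM in WT with IL-6, against 68.61 ± 2.32 in untreated WT (-0.56 ± 0.049, limma adjusted p = 0.000416). Ccn3 rose to 126.4 ± 9.49 FPKM in WT with IL-6, against 66.87 ± 0.295 in untreated WT, 1.89 times as high (0.91 ± 0.073, limma adjusted p = 0.000293).

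Ccn5 rose to 493.5 ± 18.2 FPKM in WT with IL-6, against 378.4 ± 3.48 in untreated WT (0.38 ± 0.095, limma adjusted p = 0.036). The log2 change was 0.32 to 0.42 over the 18 alternatives, but the call was kept in only 9 of them. It ended with quantile normalization (limma adjusted p = 0.0615), equal library totals (0.0568), no intensity trend (0.0556), no filter (0.107) or a pseudocount of 0.1 (0.288). It also ended without any 1 of the 4 WT libraries, which leaves 1 library in that group. The SE is shared by all 4 groups, including the KO libraries at under 1 FPKM, so it does not measure the spread of the WT libraries alone. With only the WT libraries fitted, the adjusted p was 0.0246. Ccn4 was at 18.65 ± 1.03 FPKM in WT with IL-6, against 19.64 ± 0.285 in untreated WT, a change of -0.07 with a 95% interval of -0.18 to 0.04 (limma adjusted p = 0.363).

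In KO cells no tested member passed with IL-6. By limma, 0 of 5 were called, beside 0.0219% of all genes, which is 3 of 13693. An unadjusted p below 0.05 was reached by 1025 of the 13693 genes and by 2 of the 5 members. These were Ccn4, with a change of -0.13 ± 0.047 (adjusted p = 0.596), and Ccn5, with 0.30 ± 0.095 (adjusted p = 0.514). For both genes the KO libraries with IL-6 did not overlap the untreated KO libraries. The log2 change was -0.14 for Ccn2 with a 95% interval of -0.29 to 0.02, 0.04 for Ccn1 with an interval of -0.08 to 0.15, and 0.06 for Ccn3 with an interval of -0.11 to 0.23.

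The difference between the IL-6 changes was then tested directly as an interaction. It passed for 3 of the 5 members, 2 with a positive and 1 with a negative difference, beside 6.06% of all genes (2.54% positive, 3.52% negative). For Ccn2 the KO change was higher than the WT change by 0.96 ± 0.094 (limma adjusted p = 0.00207), and for Ccn1 by 0.60 ± 0.069 (limma adjusted p = 0.00376). For Ccn3 it was lower by log2 -0.84 ± 0.10 (limma adjusted p = 0.00495). These 3 calls were kept under every alternative run, with adjusted p of 0.00123 to 0.0269. The KO values of Ccn3 stand for 393 to 528 fragments. The difference was -0.06 for Ccn4 with an interval of -0.21 to 0.10. For Ccn5 it was -0.08 with an interval of -0.39 to 0.24, and its sign turned to 0.31 with a pseudocount of 0.1.

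**Figure D3:**
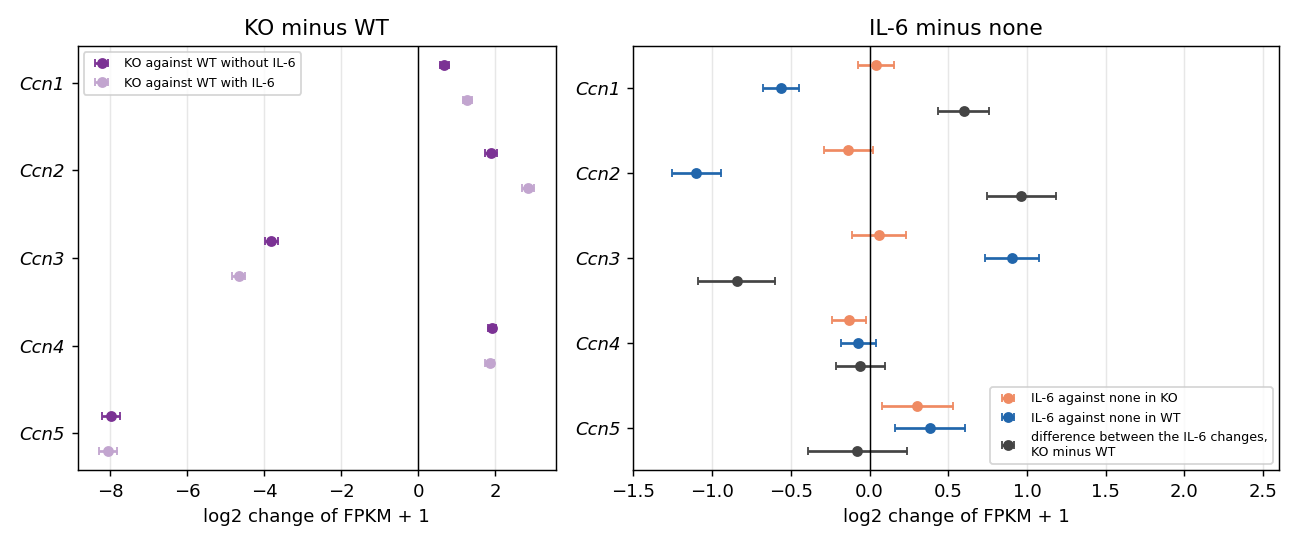
Log2 change of FPKM + 1 of the 5 tested CCN genes with 95% intervals: KO minus WT without and with IL-6 at the left, and at the right IL-6 minus none in KO, in WT, and the KO change minus the WT change. In WT the intervals of Ccn1 and Ccn2 lie below 0 and those of Ccn3 and Ccn5 above it, while the KO points of Ccn1, Ccn2 and Ccn3 lie near 0.

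The levels were carried mostly by 1 transcript per gene. Ccn1, Ccn3 and Ccn6 have 1 transcript in the files. For Ccn2, the 5-exon transcript Ccn2-201 made up 97.8 ± 0.230% in KO with IL-6, 97.9 ± 0.0580% in KO without it, 99.0 ± 0.460% in WT with IL-6, and 97.9 ± 0.128% in WT without it (SD, n = 2 each). Ccn4-204, annotated as a target of nonsense-mediated decay, held 9.65 ± 2.71% of Ccn4 in KO with IL-6, 14.4 ± 1.17% in KO without it, 8.11 ± 2.71% in WT with IL-6, and 7.10 ± 2.53% in WT without it. The 2 untreated KO libraries, at 13.57 and 15.22%, were the highest of all, but the other groups ranged from 5.309 to 11.56% and overlapped. Ccn5-202, a processed transcript without a coding sequence, was at 64.89 and 60.44 FPKM in WT with IL-6, against 45.29 and 41.1 FPKM in untreated WT, or 12.7 ± 0.169% of Ccn5 with IL-6 and 11.4 ± 0.678% without. The coding transcript Ccn5-201 was at 0.76 and 0.857 FPKM in KO with IL-6, against 0.3095 and 0.3978 in untreated KO. Ccn5-202 was at no more than 0.2604 FPKM in any KO library, so both transcripts were low in KO. How fragments were divided between overlapping transcripts limits these shares.

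For each tested member the genes of most similar pattern were taken as those with the highest Pearson correlation of log2(FPKM + 1) over the 8 libraries. These are descriptions, since the 8 points fall into 4 groups and share the genotype difference. For Ccn1 the second highest was Gm17501 (r = 0.997), a lincRNA on the plus strand of chromosome 3 that starts 331 bases from the start of Ccn1, which lies on the minus strand. The others were Snap47, encoding a SNARE protein, and Speg, encoding a muscle kinase, and 41 genes had an r above 0.99. Gm17501 was at 13.25 and 12.37 FPKM in KO with IL-6, 13.82 and 13.21 in KO without it, 2.786 and 3.215 in WT with IL-6, and 6.253 and 5.998 in WT without it. Like Ccn1, its KO groups overlapped, and its WT libraries with IL-6 lay below the untreated ones. It was higher in untreated KO by 1.03 ± 0.072 and fell in WT with IL-6 by 0.83 ± 0.072 on the log2 scale. The KO change with IL-6 was 0.76 ± 0.10 above the WT change. Gm17501 was picked for its correlation with Ccn1 over these same libraries. Its changes therefore had to resemble those of Ccn1 and are no separate test.

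The promoter window of Ccn1 is shown because it lies where the divergent genes Ccn1 and Gm17501 face each other. It covers 250 bases before and 50 after the RefSeq start of Ccn1, at chr3:145649936-145650235 on the minus strand of GRCm38.p6. Capitals mark, in order, a TEAD core (GGAATG on the other strand), a CRE half-site (TGACG on the other strand) and a TATA box (TATAAA), at 103, 58 and 25 bases before the start.
Ccn1 promoter: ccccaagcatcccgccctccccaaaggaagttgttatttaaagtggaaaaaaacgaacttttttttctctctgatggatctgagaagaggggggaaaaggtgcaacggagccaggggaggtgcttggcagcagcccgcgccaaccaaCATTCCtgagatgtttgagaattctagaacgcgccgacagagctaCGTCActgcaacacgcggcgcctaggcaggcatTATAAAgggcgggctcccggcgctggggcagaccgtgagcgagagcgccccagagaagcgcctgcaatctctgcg
Both strands were searched. Of 32851 RefSeq promoter windows of the same length, 14.66% hold a TEAD core, 20.81% a CRE half-site and 13.62% a TATA box. The CArG box of SRF (1.63% of windows), the AP-1 motif TGANTCA (7.81%) and the STAT motif TTCNNNGAA (8.3%) had no match in these 300 bases, which says nothing of the rest of the locus. The short SMAD motif CAGAC, held by 49.59% of windows, had 1 match, left in lower case, 3 bases after the start. The marked motifs do not overlap each other, and a match is not evidence of binding. RefSeq windows were matched for 2 of the 6 members, Ccn1 and Ccn6. The Ccn6 window held 1 CRE half-site and 2 SMAD motifs, and none of the other motifs searched.

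For Ccn2 the closest genes were Mtus1, encoding a microtubule-associated protein, Lrrc75b, a leucine-rich repeat gene, and Tagln, encoding the actin-binding protein transgelin (r = 0.998 each), with 109 genes above 0.99. Tagln was at 237.2 and 255.6 FPKM in KO with IL-6, 247.8 and 255.6 in KO without it, 25.85 and 29.12 in WT with IL-6, and 58.31 and 59.73 in WT without it. For Ccn3 they were Fam53c, Lvrn, encoding the peptidase laeverin, and Prelp, encoding a small leucine-rich matrix protein (r = 0.99947 to 0.99955), with 531 genes above 0.99. For Ccn4 they were Tdrp, Cdc42bpa, encoding a kinase of the actin cytoskeleton, and Cadm4, encoding an adhesion molecule, with 1156 above 0.99. For Ccn5 they were Nfatc4, encoding a calcineurin-regulated transcription factor, the scavenger receptor gene Colec12 and the chemokine gene Cxcl5, with 806 above 0.99. Cxcl5 was at 0.4517 and 0.6185 FPKM in untreated KO, against 700.0 and 729.1 FPKM in untreated WT. Within the family, Ccn1 and Ccn2 had r = 0.995, and Ccn3 and Ccn5 had r = 0.992. Ccn4 and Ccn5 had r = -0.999, and Ccn2 and Ccn3 had r = -0.985.

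**Figure D4:**
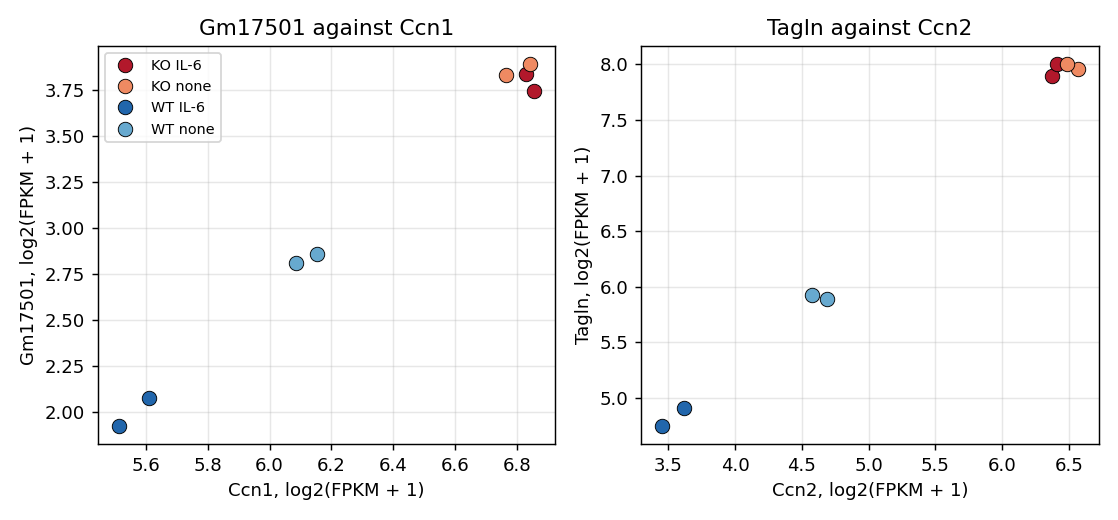
Log2(FPKM + 1) of Gm17501 against Ccn1 (left) and of Tagln against Ccn2 (right), 1 point per library, coloured by group. In both panels the 4 KO libraries lie together at the top, untreated WT in the middle and WT with IL-6 at the bottom.

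Genes around the family were read from lists of regulators, targets and receptors. Of 23 YAP/TEAD targets other than the CCN genes, all 23 tested, 17 were higher and 5 lower in untreated KO, beside 36.4% higher and 34.5% lower (71.0% called) over all genes tested. The median change was 0.54, beside 0.00689 over all genes. Tgfb2, encoding a TGF-beta ligand, was at 26.17 FPKM in untreated KO and 5.232 in untreated WT (2.12 ± 0.056). Igfbp3, an IGF carrier, was at 51.06 in untreated KO and 13.01 in untreated WT (1.89 ± 0.050), and Wwc1, encoding the Hippo scaffold KIBRA, at 19.13 in untreated KO and 2.216 in untreated WT (2.65 ± 0.087). With IL-6 in WT, 1 of the 23 rose and 4 fell, beside 15.7% called over all genes (8.30% higher, 7.41% lower), with a median of 0.0135 beside -0.00197 over all genes. Igfbp3 rose (1.504 ± 0.050, adjusted p = 1.97e-05) and Tgfb2 fell (-0.91 ± 0.056, adjusted p = 8.39e-05). The number that fell was 1 or 2 without any 1 of the 4 WT libraries, or 1 with only the WT groups fitted. Among the calls lost was that of Asap1, encoding a GTPase-activating protein (-0.36 ± 0.067), without library 1 of untreated WT (0.0586) or of WT with IL-6 (0.0606). With IL-6 in KO, Igfbp3 was the one gene of the 6 lists that was called, at 93.68 FPKM in KO with IL-6, against 51.06 in untreated KO (0.86 ± 0.050, adjusted p = 0.0028), and this call ended without library 2 of KO with IL-6 (0.0524), without either untreated KO library (0.0551 and 0.0718) or with only the KO groups fitted (0.0698).

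Of 16 Hippo pathway and TEAD genes, 9 were higher and 4 lower in untreated KO, with a median of 0.31. These 13 of 16 stand beside 71.0% of all genes called. Tead1, encoding a TEAD factor, was at 57.97 FPKM in untreated KO and 25.9 in untreated WT (1.13 ± 0.043), Nf2, encoding merlin, at 35.79 in untreated KO and 17.9 in untreated WT (0.96 ± 0.042), and Sav1, encoding a kinase scaffold, at 20.88 in untreated KO and 53.38 in untreated WT (-1.31 ± 0.041). With IL-6 in WT, 8.30% of all genes were called higher and 7.41% lower. Of the 16, 2 rose and none fell by limma (0 at an unadjusted p below 0.05), with a list median of 0.05. Sav1 was among them (0.38 ± 0.041, adjusted p = 0.0011), as was Tead3, another TEAD factor (0.39 ± 0.072, adjusted p = 0.0122, but 0.0647 without library 2 of untreated WT and 0.0629 without library 2 of WT with IL-6). The coactivator genes Yap1 and Wwtr1 are named here after their values were seen. They were at 51.23 and 52.64 FPKM in WT with IL-6, against 49.08 and 52.99 in untreated WT (limma adjusted p = 0.329 and 0.898). In untreated KO, where 71.0% of all genes were called, Yap1 was lower (-0.12 ± 0.037, limma adjusted p = 0.0179). Wwtr1 was higher there (0.31 ± 0.034, limma adjusted p = 0.000102).

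Several SRF and MRTF target genes fell with IL-6 in WT. The factor genes Srf, Mrtfa and Mrtfb, named here after their values were seen, did not pass there. Their changes were 0.06 ± 0.069, 0.14 ± 0.046 and -0.11 ± 0.080 (limma adjusted p = 0.644, 0.0779 and 0.416). Without IL-6, Srf was higher in KO than in WT (0.59 ± 0.069, limma adjusted p = 0.000151), and Mrtfa and Mrtfb were not called. Of 14 listed, 13 were tested. With IL-6 in WT none rose by limma (1 at an unadjusted p below 0.05) and 7 fell, beside 8.30% higher and 7.41% lower over all genes. The list median was -0.25, beside -0.00197 over all genes. Acta2, smooth-muscle actin, was at 16.42 FPKM in WT with IL-6, against 45.37 in untreated WT (-1.41 ± 0.052, adjusted p = 1.97e-05). Tagln was at 27.48 FPKM in WT with IL-6, against 59.02 in untreated WT (-1.08 ± 0.062, adjusted p = 6.64e-05), and Myl9, a myosin light chain, at 18.32 in WT with IL-6, against 40.14 in untreated WT (-1.09 ± 0.11, adjusted p = 0.000979). The number that fell was 4 without library 1 of untreated WT or of WT with IL-6, with no filter, or with only the WT groups fitted. In untreated KO 5 were higher and 4 lower, a share near the 71.0% of all genes called, with a median of 0.08, among them Acta2 at 341.4 FPKM in untreated KO and 45.37 in untreated WT (2.88 ± 0.052). The KO change with IL-6 was above the WT change for 4 of 13, beside 2.54% of all genes. These included Acta2 (1.33 ± 0.074, limma adjusted p = 0.000365) and Tagln (1.05 ± 0.087, limma adjusted p = 0.00125). The KO change was below the WT change for none by limma (2 at an unadjusted p below 0.05), beside 3.52% of all genes. The 4 became 2 without library 2 of untreated KO and 3 or 4 without any other library.

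TGF-beta ligands, receptors and Smads, upstream of Ccn2, gave mixed counts. Of 12, 4 rose and 2 fell with IL-6 in WT, beside 8.30% higher and 7.41% lower over all genes. The list median was 0.00542, beside -0.00197 over all genes. The ligand genes Tgfb2 (above) and Tgfb3 fell, Tgfb3 to 24.16 FPKM in WT with IL-6, against 39.12 in untreated WT (-0.67 ± 0.037, adjusted p = 6.07e-05), and the co-receptor gene Tgfbr3 rose to 55.64 in WT with IL-6, against 30.6 in untreated WT (0.84 ± 0.087, adjusted p = 0.000979). The number that rose was 2 without library 2 of untreated WT, without library 1 of WT with IL-6, or with only the WT groups fitted. In untreated KO 7 were higher and 2 lower, beside 36.4% higher and 34.5% lower over all genes, with Tgfbr1, encoding a signalling receptor, at 14.22 FPKM in untreated KO and 5.265 in untreated WT (1.28 ± 0.053), and Tgfbr3 at 4.047 in untreated KO and 30.6 in untreated WT (-2.65 ± 0.087). Of 12 canonical Wnt genes, 11 were tested, and 2 were higher and 7 lower in untreated KO, beside the same 36.4% and 34.5%, with a median of -0.61. The Wnt feedback genes Nkd2, at 0.2632 FPKM in untreated KO and 29.77 in untreated WT (-4.61 ± 0.086), Notum (-2.30 ± 0.091) and Axin2 (-1.83 ± 0.092) were lower there, as Ccn5 was, while Ccn4 was higher. With IL-6 in WT, 4 of the 11 fell and none rose by limma (1 at an unadjusted p below 0.05), beside 7.41% lower and 8.30% higher over all genes. The number that fell was smaller without library 1 of WT with IL-6, which leaves 1 library in that group. Nkd2 was at 18.64 FPKM in WT with IL-6, against 29.77 in untreated WT (-0.65 ± 0.086, adjusted p = 0.00284, or 0.087 with a pseudocount of 0.1).

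Of 18 receptors and binding partners of CCN proteins, 15 were tested. In WT with IL-6, 3 rose and 4 fell, beside 8.30% higher and 7.41% lower over all genes. The list median was -0.13, beside -0.00197 over all genes. Dcn, encoding decorin, which binds Ccn2, was at 429.2 FPKM in WT with IL-6, against 165.8 in untreated WT (1.36 ± 0.081, adjusted p = 7.46e-05). Sdc4, encoding a syndecan co-receptor, was at 127.6 in WT with IL-6, against 75.4 in untreated WT (0.75 ± 0.051, adjusted p = 0.000125), and Vegfa, an angiogenic ligand bound by Ccn2, at 30.06 in WT with IL-6, against 20.08 in untreated WT (0.56 ± 0.072, adjusted p = 0.00253). The number that fell was 1 or 2 without library 2 of untreated WT, without either WT library with IL-6, with no filter, or with only the WT groups fitted. In untreated KO 8 were higher and 5 lower, where 71.0% of all genes were called, with Fn1, encoding fibronectin, at 1124 FPKM in untreated KO and 231.8 in untreated WT (2.28 ± 0.094), and Dcn at 793.6 in untreated KO and 165.8 in untreated WT (2.25 ± 0.081). The WT rises of Dcn, Sdc4 and Vegfa exceeded their KO changes, with differences, KO minus WT, of -1.33 ± 0.11 (adjusted p = 0.00137), -0.69 ± 0.072 (adjusted p = 0.00247) and -0.77 ± 0.10 (adjusted p = 0.00682).

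**Figure D5:**
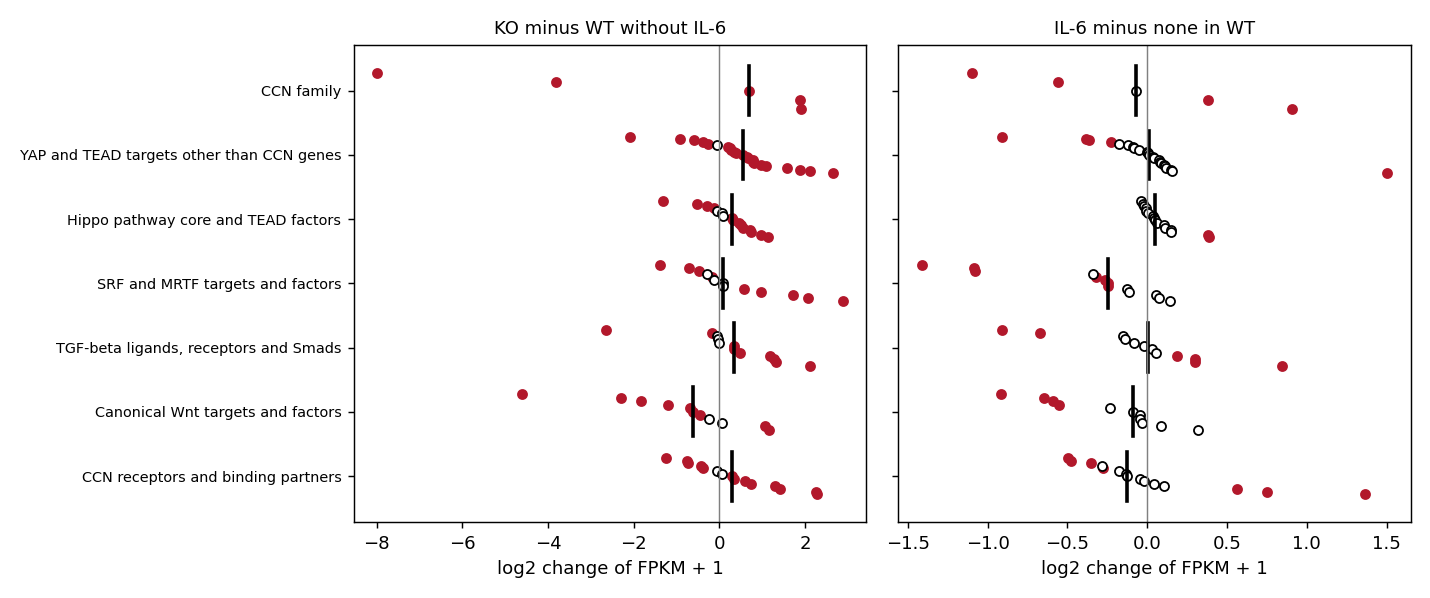
Log2 change of FPKM + 1 for the 5 tested CCN genes and the genes of 6 lists, untreated KO minus untreated WT (left) and IL-6 minus none in WT (right); filled points passed the test, open points did not, and vertical bars are list medians. With IL-6 in WT, the called SRF and MRTF genes all lie below 0, and the YAP/TEAD targets have a median of 0.0135.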

How the data were processed

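The authors deposited FPKM per transcript for each of the 8 libraries. The submitters' processing notes name HISAT2, Cufflinks 2.2.1 and the build GRCm38.p6. Per the labels' protocols, RNeasy columns gave the RNA and the TruSeq stranded mRNA kit the libraries. The annotation release and strand setting are not given in the sources used here.

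Here the 142869 transcripts per file were summed to 55358 genes by name. No pair of libraries was identical. The 13693 genes that reached 1 FPKM in 2 libraries entered limma (version 3.58.1, R version 4.3.3) as log2(FPKM + 1). The model had 1 mean per group over all 8 libraries and an intensity trend, and p-values were adjusted by Benjamini-Hochberg over these genes within each comparison. Depth and a mean fragment length of 175 to 180 nt were fitted to low values of genes with 1 transcript, and member fragments follow from them. Positions and transcript types came from GENCODE M21 on GRCm38, and promoters from RefSeq on GRCm38.p6. Figures were drawn with matplotlib 3.10.9 under Python 3.11.15, from tables made with pandas 2.3.3.

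The members and lists were chosen with earlier results of these data known. Named were all members, up to 3 called genes of smallest p per list and comparison, some left to the tables, and the 3 genes most correlated with each tested member. Alternatives were 3 other scalings, no trend, 2 other filters, pseudocounts of 0.1 and 5, a replicate block, only the groups compared, and leaving out each library.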

Additional observations from a re-analysis of the deposited data

Results flagged for a closer look

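The IL-6 change of 3 members differed between the genotypes in a direct test of the difference, KO minus WT, with limma. For Ccn1 the difference was 0.60 (adjusted p = 0.00376). For Ccn2 it was 0.96 (adjusted p = 0.00207). For Ccn3 it was -0.84 (adjusted p = 0.00495). Each had a clear IL-6 change in WT, with both libraries of WT with IL-6 on the same side of both untreated WT libraries, and no called change in KO. With 2 libraries a group, no library could be tested for standing apart from its group.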

How the results depend on the processing

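Of 445 values of single members under the alternatives, 431 kept their direction and their side of the threshold. Values that turned their sign had not been called: without library 2 of untreated KO, the IL-6 changes in KO of Ccn1 (-0.000727 to 0.0764 over the libraries left out) and Ccn3 (-0.0148 to 0.138) and the difference for Ccn5 (-0.223 to 0.0672), and for Ccn5 the difference with a pseudocount of 0.1 (0.308). With a pseudocount of 5, which compresses the low KO values, the Ccn5 difference was called (-0.29, adjusted p = 0.0353), so 4 members were. All 9 calls lost were those of Ccn5 with IL-6 in WT. Left out in turn, the libraries gave 3 to 4 members called for IL-6 in WT, 0 to 0 for IL-6 in KO, 5 to 5 for each KO against WT comparison and 3 to 3 for the difference.

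Over all genes, the calls for IL-6 in WT were 2150, or 938 with only the WT groups and 1165 to 1774 without 1 library. For IL-6 in KO they were 3, or 7 with no filter, 5 with a filter of 5 FPKM, 0 with only the KO groups and 0 to 4 without 1 library. For the difference they were 830, or 521 with no filter and 383 to 523 without 1 library. For KO against WT they were 8823 to 9663 without IL-6 and 8901 to 9829 with it when 1 library was left out. With equal library totals, 34.74% of the calls for IL-6 in WT were higher, against 52.84% as deposited, and 55.08% against 41.93% for the difference. Replicate numbers did not pair the libraries: the deviations of same-numbered libraries correlated at -0.097 to 0.055. With the replicate block the same numbers of members were called, and over all genes 1696 for IL-6 in WT, 2 for IL-6 in KO, 9566 for KO against WT without IL-6, 9685 with it and 564 for the difference. Leaving out a library leaves 1 in its group, assumed to vary like the others.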
